A study of Mus musculus with 24 samples.

Results

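The 9 genes described here are Gbp2, Gbp3, Gbp7, Irgm1, Irgm2, Igtp, Iigp1, Apol9a and Apol9b, out of 12010 genes in a table of 24 libraries from cultured mouse melanoma cells. They were chosen by name, after Apol9a and Apol9b had been selected on the size of their fall after loss of MITF, and all 9 had a row. B16-F10-luc2 is a melanoma line that carries a luciferase reporter, and 8 lines of it were sequenced in 3 libraries each. They were the parental cells, the MITF KO, the TFE3 KO, the TFEB KO, the TFEB/TFE3 DKO, the MITF/TFE3 DKO, the MITF/TFEB DKO and the MITF/TFEB/TFE3 TKO. MITF, TFEB and TFE3 are related basic helix-loop-helix leucine zipper transcription factors. The MITF KO carries a frameshift in Mitf, and TFE3, TFEB or both were then inactivated by CRISPR in parental and in MITF KO cells. By genotype, the MITF/TFEB DKO therefore retains TFE3 only, and the MITF/TFE3 DKO retains TFEB only. The study saw a faint band with its MITF antibody in the MITF KO, and proposes that some truncated MITF may remain there. Every knockout line was isolated as a clone, all lines carry the luciferase reporter, and none was treated with interferon or any other agent before RNA extraction. A difference between genotypes and one between clones cannot be told apart. The labels do not say whether the 3 libraries of a line came from separate cultures, so that p-values measure the spread between these libraries.

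Guanylate-binding proteins (GBPs) and immunity-related GTPases (IRGs) are GTPases that cells make after exposure to interferon, and they assemble on the vacuoles that enclose intracellular parasites and bacteria and help to break them open. Interferons act through JAK kinases and STAT transcription factors, and the resulting complexes bind the interferon-stimulated response element (ISRE) or the gamma-activated site (GAS) near the start of their target genes. Irgm1, Irgm2 and Igtp (Irgm3) encode regulatory IRGs that hold the effector IRG, encoded by Iigp1 (Irga6), inactive on the cell's own membranes, and the targeting of both families to vacuoles uses the ATG8 conjugation machinery of autophagy. Apol9a and Apol9b encode apolipoprotein L proteins and are also interferon-induced genes. No protein or vacuole was measured here, only RNA.

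The start sites of 8 of the 9 genes were in the RefSeq promoter set (GRCm38.p6), with 11 windows of 300 bases that reach from 250 bases before to 50 bases after a start site. Each was located by an exact match on GRCm39 (mm39), the build to which the reads had been aligned. Both strands were searched for the ISRE core (GAAANNGAAA), the GAS (TTCNNNGAA), the E-box (CACGTG) that MITF family proteins bind and its variant, the M-box (CATGTG). The windows below belong to 4 genes whose levels are compared below: Gbp2 and Gbp3, which lie near each other and parted in the TKO, Igtp, which holds both interferon motifs, and Apol9b, which had the largest difference of the 9 between the MITF KO and parental cells on the log2(CPM + 1) scale. Capitals mark the motif matches, on either strand.
Gbp2, plus strand, chr3:142326174-142326473: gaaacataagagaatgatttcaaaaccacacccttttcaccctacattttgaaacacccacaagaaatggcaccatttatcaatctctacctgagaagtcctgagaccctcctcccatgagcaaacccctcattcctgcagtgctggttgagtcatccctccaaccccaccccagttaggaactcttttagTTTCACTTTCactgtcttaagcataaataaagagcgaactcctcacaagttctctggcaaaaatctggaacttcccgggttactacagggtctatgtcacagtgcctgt
Gbp3, plus strand, chr3:142265555-142265854: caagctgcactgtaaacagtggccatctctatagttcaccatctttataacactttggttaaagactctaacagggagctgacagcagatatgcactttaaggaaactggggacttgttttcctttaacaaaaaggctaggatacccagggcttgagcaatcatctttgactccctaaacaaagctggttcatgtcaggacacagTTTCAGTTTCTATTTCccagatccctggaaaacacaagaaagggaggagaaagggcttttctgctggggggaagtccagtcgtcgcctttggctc
Igtp, plus strand, chr11:58090132-58090431: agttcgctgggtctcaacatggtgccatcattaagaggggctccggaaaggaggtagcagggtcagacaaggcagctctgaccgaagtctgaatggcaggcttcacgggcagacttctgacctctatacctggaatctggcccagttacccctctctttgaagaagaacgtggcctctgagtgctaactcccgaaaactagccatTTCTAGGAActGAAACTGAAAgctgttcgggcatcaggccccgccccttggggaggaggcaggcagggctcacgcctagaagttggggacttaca
Apol9b, plus strand, chr15:77613022-77613321: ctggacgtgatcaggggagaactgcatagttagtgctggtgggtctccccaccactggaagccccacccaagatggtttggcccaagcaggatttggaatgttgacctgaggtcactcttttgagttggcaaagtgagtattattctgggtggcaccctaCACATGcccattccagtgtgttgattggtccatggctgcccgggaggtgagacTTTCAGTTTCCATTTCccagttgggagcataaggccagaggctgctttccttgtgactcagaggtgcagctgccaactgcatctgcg

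In Gbp2 the capitals are a single ISRE core read on the minus strand. In Gbp3 they are 2 such cores that overlap, beginning 45 and 39 bases before the start site. In Igtp the capitals are a GAS followed, after a pair of bases, by an ISRE core. In Apol9b they are first an M-box, on the minus strand, and then 2 overlapping ISRE cores, also on the minus strand, that begin 37 and 31 bases before the start site.

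The ISRE core was present in at least 1 window of all 8 genes, and in 3.44% of the 32851 promoter windows of the whole set. The second Gbp3 start site was the only 1 of the 11 windows without it. A GAS was present in Gbp7 (2 matches), Irgm2 and Igtp, and in 8.30% of all windows. No window held the E-box, which was in 7.15% of all windows. The M-box was in every window of Apol9a and Apol9b, in none of the other 6 genes and in 14.2% of all windows. The windows at the second start sites of Apol9a and Apol9b were identical over 281 aligned bases. A match is a description of letters and not of binding, which was not measured in these libraries.

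**Figure D1:**
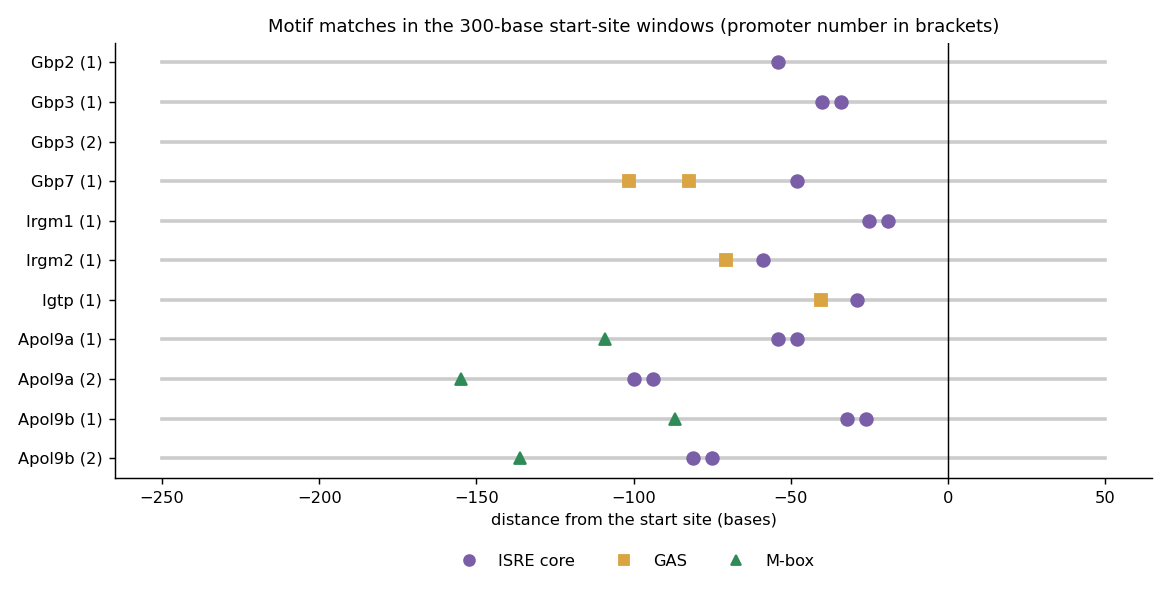
Position of each motif match (symbol at the centre of the match) along the 11 start-site windows of 8 genes, with the distance from the start site in bases on the x axis and 1 grey line per window. The ISRE core (circles) lies before the start site in 10 of the 11 windows, the GAS (squares) in those of Gbp7, Irgm2 and Igtp, and the M-box (triangles) in those of Apol9a and Apol9b.

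In the GENCODE annotation (GRCm39) all 9 genes are protein coding. Gbp7 (chr3:142236044-142255910), Gbp3 (chr3:142265731-142278979) and Gbp2 (chr3:142326349-142343779) lie in this order on the plus strand of chromosome 3. Irgm1 is at chr11:48752795-48763164 on the minus strand, and Igtp (chr11:58089840-58098417) and Irgm2 (chr11:58090444-58113615) lie on the plus strand of the same chromosome with overlapping spans. Iigp1 is on the plus strand at chr18:60506680-60525706. Apol9a (chr15:77287989-77295335, minus strand) and Apol9b (chr15:77613239-77620585, plus strand) face away from each other on chromosome 15. The libraries hold reads from the 3′ ends of transcripts, so that sequence shared between 3′ ends matters for the counts. Of the 50-base words in the last 300 bases of Apol9a and Apol9b, 47.8% were shared between the pair, and their separate levels are therefore uncertain. Irgm1 shared 7.2% of these words with Gm32958, the 3′ end of Igtp lies within the span of Irgm2, and the other 5 GTPases shared none. An unnamed gene (ENSMUSG00000127942) spans the 3′ end of Irgm2 on the opposite strand. Medians over up to 100 expressed neighbouring genes stayed between -0.21 and 0.33 log2 units of the median of all genes in every comparison.

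The libraries held 18300902 to 26667877 reads on genes (median 22445535), at which depth 3 reads were worth 0.109 to 0.163 CPM (reads scaled to a common library size). Tfe3 RNA averaged 8.63 to 19.8 CPM in the 4 lines without TFE3 and 35.7 to 56.4 CPM in the others, and Tfeb RNA 2.88 to 5.12 CPM in the 4 lines without TFEB and 8.80 to 18.3 CPM in the others. Mitf RNA averaged 1397 CPM in the MITF KO and 776 CPM in parental cells, and a frameshift need not lower RNA, so that it did not check that label. The 8 melanocyte markers summed to between 15545 and 39331 CPM in every library. Of 17 markers of other cell types, 5 had a row, and these summed to 2.89 to 33.7 CPM. In bulk RNA, fewer cells that express a gene and less RNA per cell cannot be told apart.

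Across the 8 lines, the 9 genes were high in parental cells, lowest in the MITF KO and, with the exception of Gbp2, low in the TKO. The 3 lines that kept MITF but lacked TFE3, TFEB or both lay below the parental mean for every gene. The lines that lost MITF together with only 1 of the other factors were again high, except that both Apol9 genes in TFEB-only cells, and Irgm1 in TFE3-only cells, lay at intermediate levels. The MITF/TFEB DKO, which retained TFE3 only, had the highest mean for 8 of the 9 genes, the exception being Irgm1. The MITF KO had the lowest mean for all 9.

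**Figure D2:**
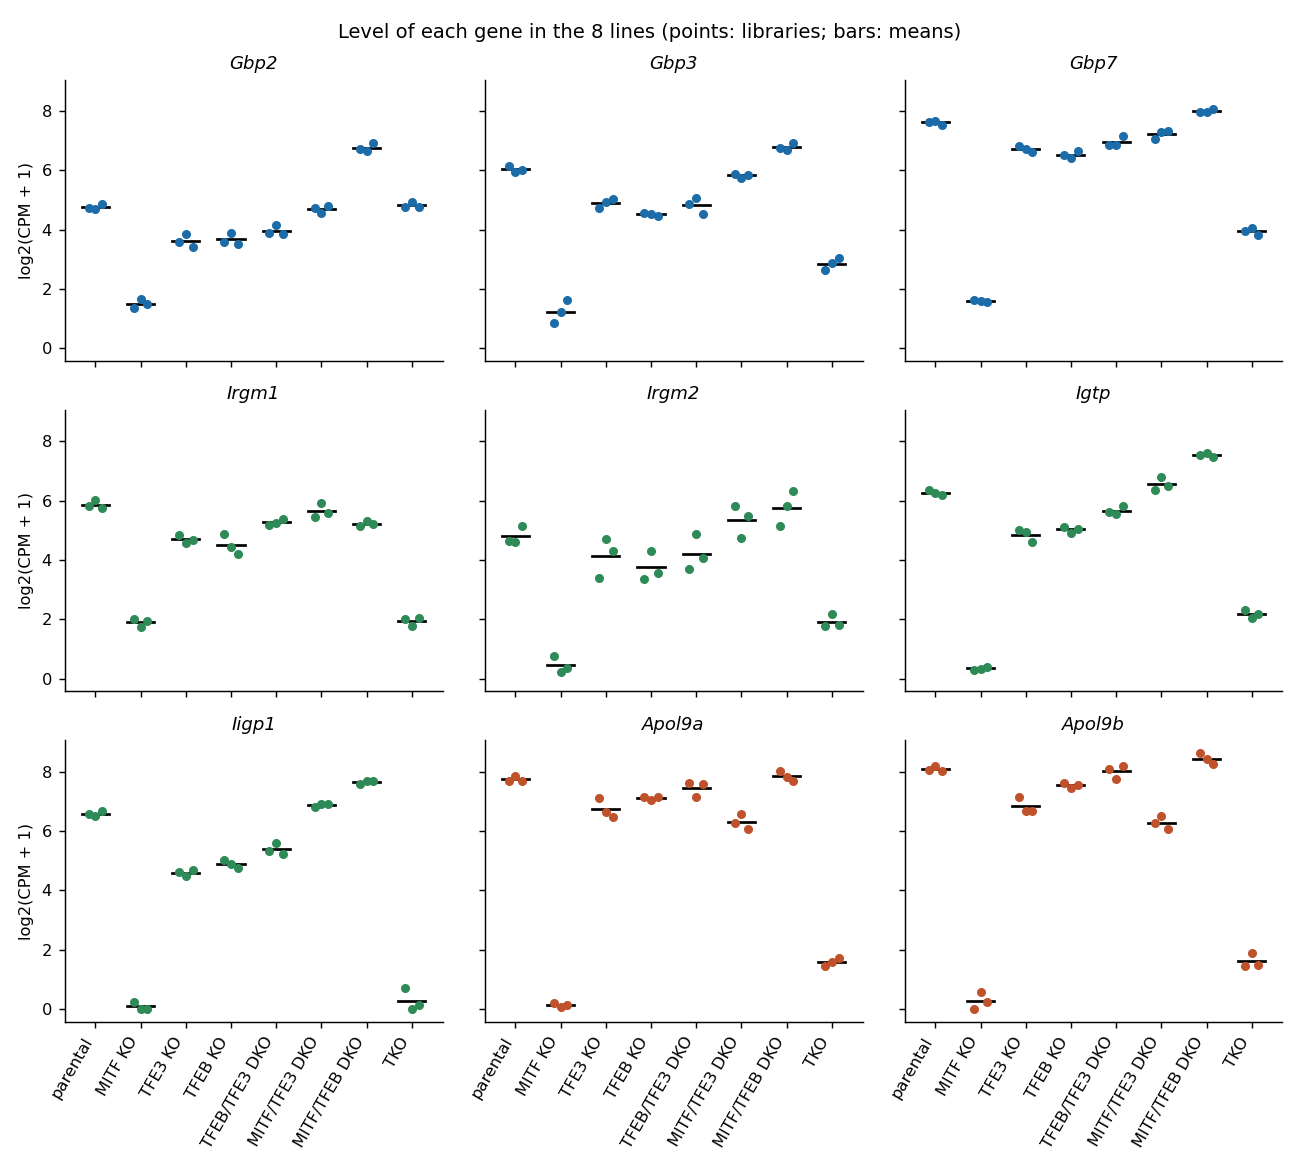
Level of each gene as log2(CPM + 1) in the 8 lines, with 1 point per library (n = 3 per line) and a bar at the mean of the 3. All 9 genes are low in the MITF KO. All but Irgm1 are high in the MITF/TFEB DKO, and 8 of the 9 are low in the TKO, where Gbp2 lies at the level of the parental libraries.

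The GBPs were measured first. Gbp2 encodes a GTPase that coats vacuoles and the surface of bacteria in the cytosol. It was at 25.5, 24.7 and 28.1 CPM in the parental libraries, at 1.55, 2.13 and 1.80 CPM in the MITF KO and at 104, 99.6 and 119 CPM in TFE3-only cells. The MITF/TFE3 DKO (25.5, 22.8 and 27.1 CPM) and the TKO (26.2, 29.7 and 25.9 CPM) overlapped with each other and with the parental libraries. The other 3 lines lay together at 9.75 to 16.8 CPM, above the MITF KO and below the parental cells.

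Gbp3 lies near Gbp2 and encodes a closely related GBP. It was at 69.5, 60.3 and 63.3 CPM in parental libraries, at 0.80, 1.33 and 2.12 CPM in the MITF KO and at 107, 103 and 120 CPM in the MITF/TFEB line. In TKO libraries it was at 5.25, 6.37 and 7.27 CPM, below every library of the lines other than the MITF KO. The MITF/TFE3 DKO (52.6 to 58.1 CPM) lay just under the parental cells, and the TFE3 KO, the TFEB/TFE3 DKO and the TFEB KO ran from 20.9 to 32.2 CPM.

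Gbp7 encodes a GBP linked to oxidative and autophagic killing of bacteria. Its 3 libraries differed little within each line, with a coefficient of variation of at most 12.9% in the 6 lines other than the MITF KO and the TKO. It was at 199, 203 and 183 CPM in parental cells, at 2.07, 2.01 and 1.96 CPM in the MITF KO and at 250, 251 and 267 CPM in the MITF/TFEB DKO. The TKO held 14.5, 15.7 and 13.2 CPM, apart from both neighbours in the order.

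Among the IRGs, Irgm1 encodes the regulator that stays on the cell's own membranes, and its loss makes mice vulnerable to intracellular pathogens. Irgm1 was the gene whose highest mean was in the parental line, with 56.0, 63.3 and 52.8 CPM. It was at 42.7, 59.6 and 47.0 CPM in the MITF/TFE3 DKO, which overlapped with the parental cells, and at 34.4, 38.8 and 36.0 CPM in the MITF/TFEB DKO. The MITF KO (3.01, 2.33 and 2.83 CPM) and the TKO (3.02, 2.38 and 3.10 CPM) overlapped at the lower end.

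Irgm2 encodes another regulatory IRG, and its libraries were the most scattered of the 9 genes, with a coefficient of variation of 21.9% to 46.7% in the 6 lines other than the MITF KO and the TKO. It was at 24.2, 23.2 and 34.0 CPM in parental cells and at 34.5, 55.0 and 78.8 CPM in the MITF/TFEB DKO. It was at 0.71, 0.16 and 0.27 CPM in the MITF KO libraries and at 2.40, 3.52 and 2.49 CPM in the TKO. The other 6 lines each overlapped with the next in the order of means, whereas the TKO and the MITF KO stood apart from them and from each other.

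Igtp encodes the third regulatory IRG. It was at 81.3, 76.1 and 71.4 CPM in parental cells, at 0.24, 0.24 and 0.33 CPM in the MITF KO and at 3.93, 3.14 and 3.53 CPM in the TKO. The MITF/TFEB DKO held 186, 196 and 177 CPM and the MITF/TFE3 DKO 80.6, 111 and 89.8 CPM. The TFE3 KO and the TFEB KO overlapped at 23.6 to 33.7 CPM and the TFEB/TFE3 DKO lay above them at 45.8 to 55.0 CPM.

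Iigp1 encodes the effector IRG that loads onto parasite vacuoles. It was at 94.9, 89.0 and 101 CPM in parental cells and at 192, 206 and 206 CPM in the MITF/TFEB DKO. The MITF KO libraries held 4, 0 and 0 reads and the TKO libraries 17, 0 and 2 reads, so that both lines were at the limit of what this depth detects. Each of the other 6 lines stood apart from the next in the order of means, down to 21.3 to 24.8 CPM in the TFE3 KO.

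Apol9a and Apol9b encode proteins of the apolipoprotein L family. Apol9a was at 205, 229 and 206 CPM in parental cells, with 3, 1 and 2 reads in the MITF KO libraries. The MITF/TFEB DKO held 257, 226 and 206 CPM, which overlapped with the parental cells, and the MITF/TFE3 DKO 76.2, 94.2 and 65.4 CPM. The TKO libraries were at 1.71, 2.0 and 2.32 CPM, above every library of the MITF KO.

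Apol9b was at 268, 291 and 256 CPM in parental cells, with 0, 12 and 3 reads in the MITF KO libraries. The MITF/TFEB DKO held 393, 344 and 305 CPM, above every parental library, and the MITF/TFE3 DKO 75.9, 89.8 and 66.7 CPM. The TKO held 1.71, 2.66 and 1.81 CPM. Both Apol9 genes had their sixth highest mean in the MITF/TFE3 DKO, where Gbp2, Gbp3, Gbp7, Irgm1, Irgm2, Igtp and Iigp1 ranked from 2 to 4.

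The fall in the MITF KO against parental cells was the basis on which genes were chosen, and it is given without a test. On the log2(CPM + 1) scale the differences ran from -3.26 for Gbp2 to -7.83 for Apol9b, with -3.97 for Irgm1, -4.35 for Irgm2, -4.79 for Gbp3, -5.93 for Igtp, -6.02 for Gbp7, -6.50 for Iigp1 and -7.61 for Apol9a. All 9 were lower by more than 2-fold, and because this contrast chose the genes, nothing is read from that count beside the 2.99% of all 12010 genes that were called lower. A gene was called in the comparisons below at a 2-fold difference with an unadjusted p under 0.05, each fitted over all genes with limma, and "rose" and "fell" refer to this threshold. The adjusted p-values are Benjamini-Hochberg values over the 12010 genes.

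The comparisons that use neither the parental nor the MITF KO libraries set separate lines against each other, and "loss" names the factor by which they differ. MITF was not removed from cells without TFE3 or TFEB. Every line without MITF derives from the MITF KO, so the Apol9 tests of MITF loss are not independent of the choice of these genes. In cells without TFE3, loss of MITF (MITF/TFE3 DKO against TFE3 KO) raised 4 of the 9 genes and lowered none, and 5.38% of all genes rose. The 4 were Gbp2 (log2 difference 1.08 ± 0.13 SE, adjusted p = 6.2e-07), Irgm2 (1.21 ± 0.35, adjusted p = 0.0067), Igtp (1.70 ± 0.12, adjusted p = 8.9e-11) and Iigp1 (2.28 ± 0.14, adjusted p = 9.5e-12). Irgm1 and Gbp3 lay just under the threshold at 0.96 ± 0.15 and 0.92 ± 0.16, and Gbp7 was at 0.50 ± 0.10. Apol9a and Apol9b differed in the other direction, at -0.44 ± 0.15 and -0.55 ± 0.16, and did not pass the fold threshold. The calls nearest the threshold changed with single libraries or the pseudocount. Gbp2 was at 0.98 without TFE3 KO replicate 3 and at 0.88 with a pseudocount of 5, Irgm2 at 0.84 without TFE3 KO replicate 1 and at 0.98 without MITF/TFE3 DKO replicate 1, and Irgm1 at 1.03 and 1.06 without these same libraries.

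In cells without TFEB, loss of MITF (MITF/TFEB DKO against TFEB KO) raised 6 of the 7 GTPases and neither Apol9 gene, and 9.32% of all genes rose. Gbp2 rose from a mean of 11.8 CPM to 108 CPM, a log2 difference of 3.09 ± 0.13 SE (adjusted p = 5.2e-15). Iigp1 rose by 2.77 ± 0.14, Igtp by 2.52 ± 0.12, Gbp3 by 2.27 ± 0.16, Irgm2 by 2.01 ± 0.35 and Gbp7 by 1.48 ± 0.10. Irgm1 differed by 0.72 ± 0.15, Apol9a by 0.73 ± 0.15 and Apol9b by 0.90 ± 0.16, all under the 2-fold threshold, with adjusted p of at most 2.4e-04.

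In cells without both TFEB and TFE3 the same loss went the other way for 6 of the 7 GTPases. The Apol9 genes, which had been lower without TFE3 and higher without TFEB, were lower here. TKO against TFEB/TFE3 DKO lowered 8 of the 9 genes, and 7.02% of all genes fell. Apol9b fell from a mean of 258 CPM to 2.06 CPM (log2 difference -6.40 ± 0.16 SE, adjusted p = 1.6e-19), Apol9a from 176 to 2.01 CPM (-5.87 ± 0.15) and Iigp1 from 41.3 to 0.235 CPM (-5.12 ± 0.14). The other IRGs lay between -2.29 (Irgm2) and -3.48 (Igtp), Gbp7 at -3.01 ± 0.10 and Gbp3 at -1.96 ± 0.16. Gbp2 stood apart from Gbp3 and Gbp7 and was higher in the TKO, by 0.85 ± 0.13 (adjusted p = 8.6e-06), which did not reach 2-fold.

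Gbp2 was higher after loss of MITF in all 3 backgrounds, and the other 6 GTPases were higher in the first 2 and lower in the third. The difference between the first 2 effects was tested. The effect without TFEB exceeded that without TFE3 by at least 1 log2 unit for 4 genes, where 5.91% of all genes passed in that direction. These were Gbp2 (2.01 ± 0.19 SE, adjusted p = 1.8e-08), Apol9b (1.45 ± 0.22, adjusted p = 2.3e-05), Gbp3 (1.35 ± 0.22, adjusted p = 4.9e-05) and Apol9a (1.17 ± 0.21, adjusted p = 1.3e-04). Gbp7 (0.98 ± 0.14) was next to the threshold, and Irgm1 (-0.24, 95% interval -0.67 to 0.19) showed no detectable difference between the backgrounds. Without TFE3 KO replicate 1, Apol9a was at 0.99 and Irgm2 at 1.17, and Gbp7 crossed the threshold when any 1 of 5 libraries was left out, at up to 1.04. Irgm2 also crossed it without TFEB KO replicate 2 (1.07) or MITF/TFEB DKO replicate 1 (1.10).

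Loss of TFE3 in cells that lacked MITF and TFEB (TKO against MITF/TFEB DKO) lowered all 9 genes, where 1.98% of all genes fell. The log2 difference was -7.39 ± 0.14 SE for Iigp1 (adjusted p = 1.3e-21), -6.84 ± 0.16 for Apol9b, -6.26 ± 0.15 for Apol9a and -5.37 ± 0.12 for Igtp. It was -4.06 ± 0.10 for Gbp7, -3.93 ± 0.16 for Gbp3, -3.84 ± 0.35 for Irgm2 and -3.29 ± 0.15 for Irgm1. Gbp2 fell least, by 1.94 ± 0.13 (adjusted p = 6.8e-11), from 108 ± 10.0 CPM (SD, n = 3) to 27.3 CPM. No library of the TKO reached any library of the MITF/TFEB DKO for any of the 9 genes. The share of all genes kept apart in this way was not computed, so nothing is read from that count.

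With MITF present, loss of TFE3 from cells that lacked TFEB (TFEB/TFE3 DKO against TFEB KO) moved none of the 9 past the threshold with limma or with edgeR, although 7 had an unadjusted p under 0.05. Few of all 12010 genes passed, 18 higher and 5 lower with limma, and 104 higher and 68 lower with edgeR. The share of all genes with an unadjusted p under 0.05 alone is not given here. The 9 differences ran from 0.30 to 0.76 log2 units, and all were positive. Irgm1 (0.76 ± 0.15 SE, adjusted p = 0.0063), Igtp (0.63 ± 0.12, adjusted p = 0.0058) and Gbp7 (0.43 ± 0.10, adjusted p = 0.018) had adjusted p-values under 0.05. The 95% interval was widest for Irgm2, -0.26 to 1.19, and for Apol9b was 0.14 to 0.80. The difference between the effects of TFE3 loss without and with MITF passed the threshold in the lower direction for all 9 genes, where 2.77% of all genes did. It ran from -2.24 ± 0.19 (Gbp2, adjusted p = 3.9e-09) to -7.90 ± 0.20 (Iigp1, adjusted p = 4.6e-19).

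Loss of TFEB in cells that lacked MITF and TFE3 (TKO against MITF/TFE3 DKO) lowered 8 of the 9 genes, where 5.75% of all genes fell. Here Iigp1 differed by -6.61 ± 0.14 SE (adjusted p = 9.7e-21), Apol9a by -4.71 ± 0.15, Apol9b by -4.68 ± 0.16 and Igtp by -4.38 ± 0.12. Among the others Irgm1 differed by -3.72 ± 0.15, Irgm2 by -3.43 ± 0.35, Gbp7 by -3.27 ± 0.10 and Gbp3 by -2.97 ± 0.16. Gbp2 was at 27.3 CPM in the TKO and 25.1 CPM in TFEB-only cells, a log2 difference of 0.11 with a 95% interval of -0.16 to 0.39.

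With MITF present, loss of TFEB from cells that lacked TFE3 (TFEB/TFE3 DKO against TFE3 KO) raised 1 of the 9 genes, where 1.70% of all genes rose. That gene was Apol9b, which rose from a mean of 115 CPM to 258 CPM (1.17 ± 0.16 SE, adjusted p = 1.4e-05). Igtp (0.80 ± 0.12), Iigp1 (0.80 ± 0.14), Apol9a (0.71 ± 0.15) and Irgm1 (0.57 ± 0.15) were higher with adjusted p of at most 0.0065 but under 2-fold. Gbp3 (-0.08, 95% interval -0.41 to 0.24) and Irgm2 (0.08, -0.64 to 0.80) did not differ detectably. The effect of TFEB loss differed between cells without and with MITF, in the lower direction, for 8 genes, where 8.68% of all genes passed. It ran from -2.88 ± 0.22 (Gbp3, adjusted p = 4.0e-10) to -7.40 ± 0.20 (Iigp1, adjusted p = 1.7e-18), and for Gbp2 was -0.23 with a 95% interval of -0.62 to 0.16.

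**Figure D3:**
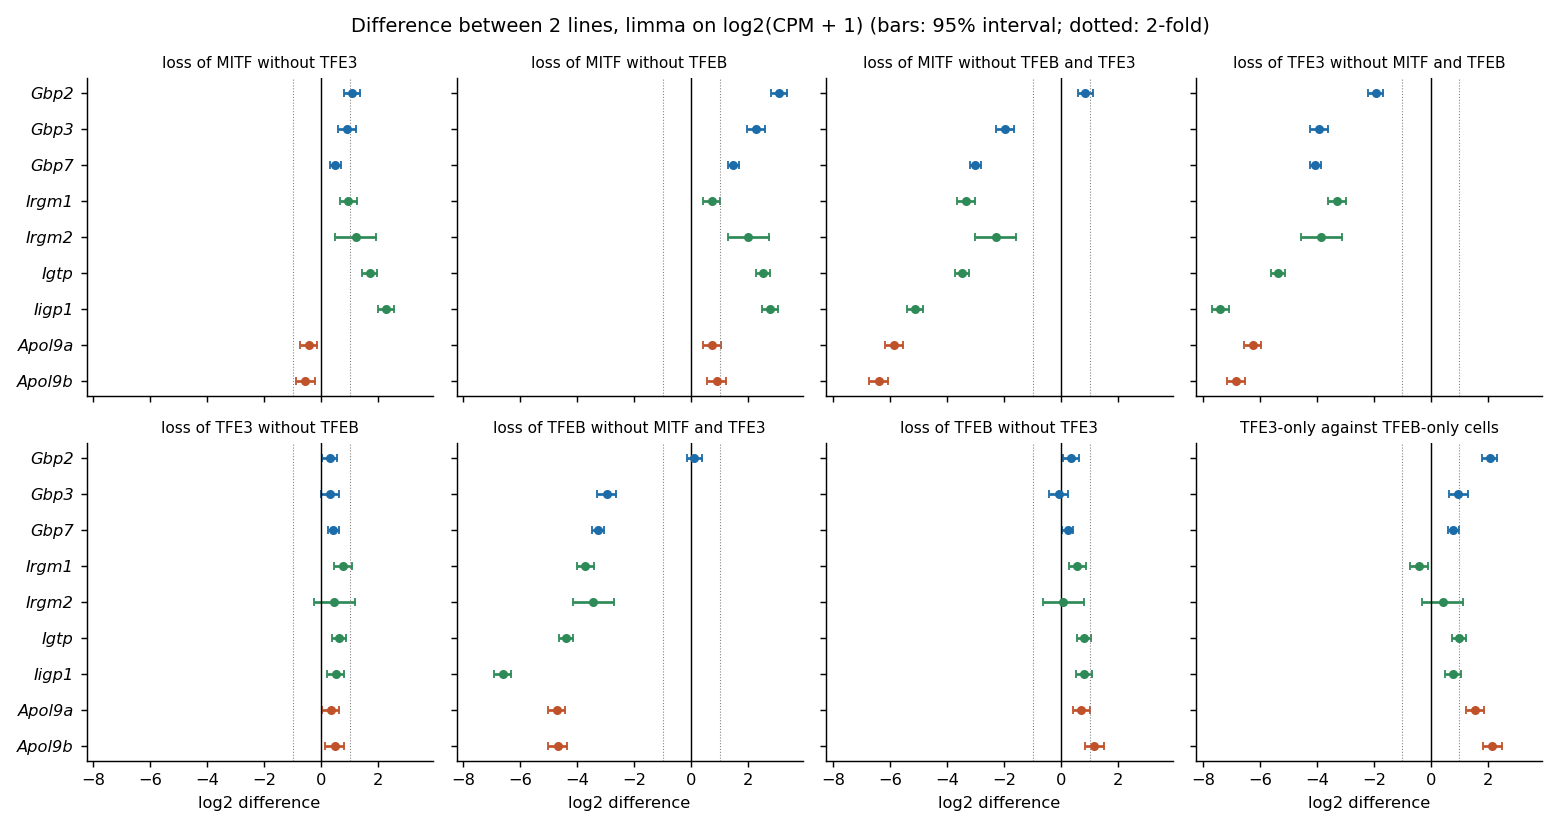
Log2 difference of each gene in the 8 comparisons that use neither parental nor MITF KO libraries (x axis, limma on log2(CPM + 1)), with the point at the estimate and the bar over its 95% interval. The dotted lines mark 2-fold. All 9 genes lie left of -1 after loss of TFE3 without MITF and TFEB, and none lies past a dotted line after loss of TFE3 without TFEB.

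The cells that retained TFE3 only and those that retained TFEB only were compared directly (MITF/TFEB DKO against MITF/TFE3 DKO). Apol9b (2.15 ± 0.16 SE, adjusted p = 1.5e-10), Gbp2 (2.05 ± 0.13, adjusted p = 1.4e-11) and Apol9a (1.55 ± 0.15, adjusted p = 1.1e-08) were higher in TFE3-only cells, 3 of the 9 genes, where 5.70% of all genes were. Igtp (0.99 ± 0.12) and Gbp3 (0.97 ± 0.16) lay at the threshold. Igtp was at 1.12 without MITF/TFE3 DKO replicate 2 and at 1.03 without MITF/TFEB DKO replicate 3, and Gbp3 was at 1.01 without MITF/TFEB DKO replicate 2. Irgm1 was the only gene with a lower mean in TFE3-only cells, at -0.43 ± 0.15 (adjusted p = 0.020), under 2-fold.

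The comparisons that share the parental or the MITF KO libraries with the contrast behind the choice were tested for the 7 GTPases, and the Apol9 values are given without a test. Against parental cells, the TFE3 KO lowered 5 GTPases (1.34% of all genes fell), with Iigp1 at -1.99 ± 0.14 SE (adjusted p = 9.0e-10) and Gbp7 (-0.89 ± 0.10) and Irgm2 (-0.66 ± 0.35) under the threshold. The TFEB KO lowered all 7 (0.591% of all genes fell), from -1.05 ± 0.35 (Irgm2, adjusted p = 0.093) to -1.70 ± 0.14 (Iigp1, adjusted p = 2.3e-08). The call of Irgm2 was lost without parental replicate 3 (-0.88), TFEB KO replicate 1 (-0.86) or TFEB KO replicate 3 (-0.96). With a pseudocount of 5, the calls of Gbp2 were lost in the TFE3 KO (-0.93) and the TFEB KO (-0.89), and that of Irgm2 in the TFEB KO (-0.86). The TFEB/TFE3 DKO lowered 2 (0.383% of all genes fell), Gbp3 at -1.21 ± 0.16 and Iigp1 at -1.19 ± 0.14. The Apol9a values in the same order were -1.0, -0.63 and -0.29, and those of Apol9b were -1.25, -0.55 and -0.08.

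Against the MITF KO, all 7 GTPases were higher in the MITF/TFE3 DKO (3.39% of all genes rose) and in the MITF/TFEB DKO (6.91% of all genes rose). The differences ran from 3.21 ± 0.13 SE (Gbp2) to 6.79 ± 0.14 (Iigp1) in the former and from 3.33 ± 0.15 (Irgm1) to 7.58 ± 0.14 (Iigp1) in the latter. The TKO was higher than the MITF KO for 5 (6.33% of all genes rose), namely Gbp2 (3.32 ± 0.13), Gbp7 (2.36 ± 0.10), Igtp (1.84 ± 0.12), Gbp3 (1.62 ± 0.16) and Irgm2 (1.47 ± 0.35). Irgm1 (0.04, 95% interval -0.27 to 0.35) and Iigp1 (0.19, -0.10 to 0.48) did not pass with limma. With edgeR on the recovered reads Iigp1 was called higher (1.99, unadjusted p = 0.041), from at most 17 reads in a library. These low levels depend on the pseudocount, since with 5 in place of 1 only 2 of the 7 passed. The MITF KO had the lowest mean for each of these genes, which were chosen with earlier results of these data known. Nothing is therefore read from the counts against the MITF KO.

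The ratio of nearby or near-identical genes varied between lines. Gbp2 was at 0.367, 0.410 and 0.444 of Gbp3 in the parental libraries, and the ratio averaged 0.397 to 0.540 in the TFE3 KO, TFEB KO, TFEB/TFE3 DKO and MITF/TFE3 DKO. It was 1.94, 1.61 and 0.846 in the MITF KO, at levels of at most 2.13 CPM, 0.978, 0.967 and 0.986 in TFE3-only cells and 4.99, 4.66 and 3.57 in the TKO, where no library overlapped with those of another line. The ratio of Apol9b to Apol9a averaged 1.51 ± 0.0274 (SD, n = 3) in the MITF/TFEB DKO, 1.47 ± 0.0638 in the TFEB/TFE3 DKO, 1.34 ± 0.0444 in the TFEB KO and 1.27 ± 0.0324 in parental cells. It averaged 1.07 ± 0.0686 in the TFE3 KO and 0.990 ± 0.0331 in the MITF/TFE3 DKO. The TKO ratios of 1.0, 1.33 and 0.778 rested on levels of at most 2.66 CPM. The 3′ ends of the pair shared 47.8% of their words, and the part of shared reads in this ratio was not tested.

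**Figure D4:**
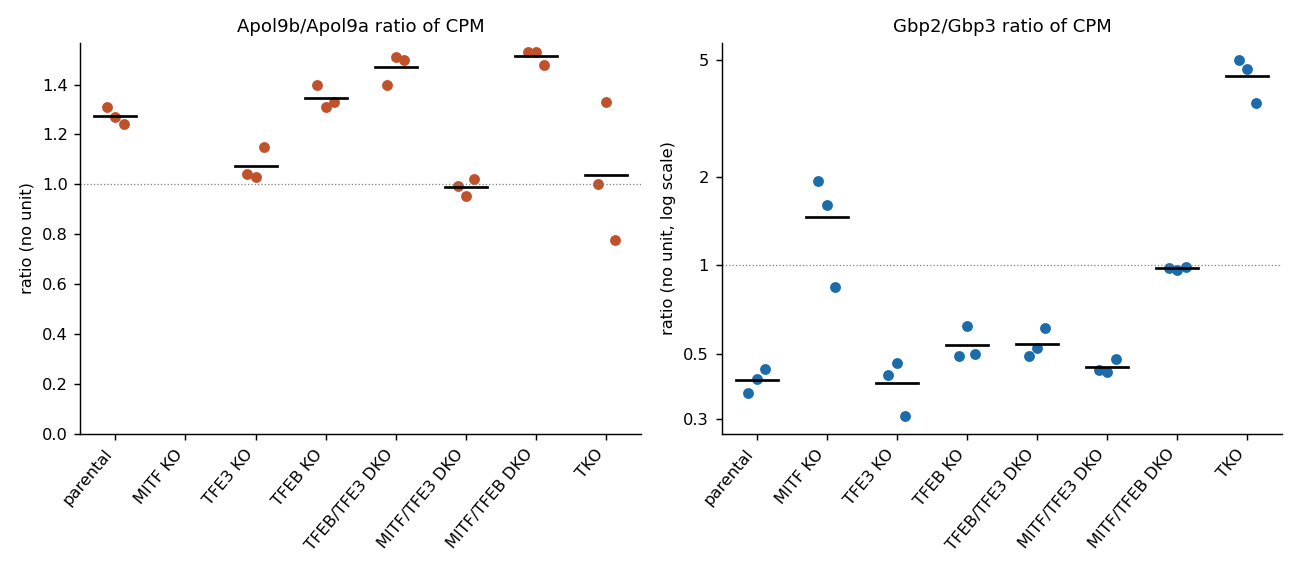
Ratio of CPM of Apol9b to Apol9a (left, linear axis from 0) and of Gbp2 to Gbp3 (right, log axis) in each library (points) with the mean of 3 (bar), by line. Apol9b to Apol9a is not drawn for the MITF KO, where reads were at most 12, and Gbp2 to Gbp3 is highest in the TKO.

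Over the 8 line means of log2(CPM + 1), the correlation between members was lowest for Gbp2, from 0.51 with Irgm1 to 0.79 with Gbp3, and was 0.91 to 1.0 between the other 8 genes. The lines share a parental origin and each knockout line is a single clone, so these values describe 8 points only. Of 3009 other genes with a mean of at least 5 CPM and line means spanning at least 1 log2 unit, those whose pattern was most like the mean of the Apol9 genes were Dtx3l (r = 0.9954), Tap1, Parp9, Pml and Ube2l6 (r = 0.9883). Those most like the mean of the z scores of the 7 GTPases were Ifi35 (r = 0.9981), Cmpk2, Mitd1 and Lgals3bp (r = 0.9936). Tap1 encodes a subunit of the peptide transporter for antigen presentation. Tap1 averaged 21.4 CPM in parental cells, 0.0874 CPM in the MITF KO, 24.9 CPM in TFE3-only cells and 1.32 CPM in the TKO.

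Other genes of the same families and pathway were read from lists. Of 11 other GBP and IRG genes analysed, 8 fell after loss of TFE3 without MITF and TFEB and none rose, with a median of -1.18 (-1.16 with levels held at the 3-read floor) against 0.01 over all genes. Over all genes 1.98% fell in that comparison. After loss of TFEB without MITF and TFE3, 6 fell and none rose (median -1.09, -0.92 with the floor), where 5.75% of all genes fell. After loss of MITF, 4 rose without TFE3 (5.38% of all genes), 5 rose without TFEB (9.32%) and 4 fell without both (7.02%), with medians of 0.65, 0.97 (0.90 with the floor) and -0.72 (-0.66). Gm4951, an IRG family gene, had 0 reads in all 3 TKO libraries against a mean of 70.7 CPM in the MITF/TFEB DKO, at least 496-fold lower with the floor of 3 reads per library. The IRG family gene F830016B08Rik was at least 179-fold lower by the same measure, and Gbp9 at least 48.6-fold lower.

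Of 12 other Apol genes listed, 3 had a row. Of these, 2 rose after loss of MITF without TFEB (9.32% of all genes), at low levels. The same 2 fell after loss of TFE3 without MITF and TFEB (1.98% of all genes). Apol10b was at 2.79 ± 0.756 CPM (SD, n = 3) in TFE3-only cells and at 0.276 ± 0.119 CPM in the TKO, and Apol6 at 2.66 ± 0.0585 CPM and 0.374 ± 0.335 CPM. Apold1, which encodes a protein with an apolipoprotein L domain, fell after loss of TFEB without MITF and TFE3, from 123 to 60.9 CPM (log2 difference -1.01 ± 0.08 SE, adjusted p = 7.9e-10). The summed level of the 3 was 58.5 to 63.2 CPM in the TKO and 94.2 to 105 CPM in the MITF KO.

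Of 96 interferon-stimulated genes analysed, 86 fell after loss of TFE3 without MITF and TFEB and none rose, with a median of -2.72. Over all genes 1.98% fell there. After loss of TFEB without MITF and TFE3, 74 fell and 1 rose (median -1.97), where 5.75% of all genes fell and 683 of 12010 rose. After loss of MITF without TFEB and TFE3, 64 fell and none rose (median -1.64), where 7.02% of all genes fell. After loss of MITF without TFE3, 23 rose (5.38% of all genes) and none fell (median 0.52). Without TFEB, 59 rose (9.32% of all genes) and 2 fell (642 of 12010), with a median of 1.18. With MITF present, loss of TFE3 without TFEB raised 1, where 18 of all 12010 genes rose. Loss of TFEB without TFE3 raised 9 (1.70% of all genes) and lowered 1 (141 of 12010). In TFE3-only against TFEB-only cells, 28 were higher (5.70% of all genes) and 1 lower (486 of 12010). Over all genes these medians lay between -0.01 and 0.03. Ifi44, an antiviral response gene, fell from 161 ± 11.7 CPM to 0.0729 ± 0.126 CPM after loss of TFE3 without MITF and TFEB. Usp18, which encodes a feedback inhibitor of the interferon receptor, fell from 273 ± 17.8 to 2.20 ± 0.18 CPM, and Ifi27l2a, an interferon-induced mitochondrial protein gene, from 127 ± 9.90 to 0.384 ± 0.131 CPM. Ifi27l2a was at 127 CPM in TFE3-only and at 1.97 ± 0.409 CPM in TFEB-only cells.

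Of 33 genes for interferon receptors, signal transducers and regulators, fewer passed. After loss of TFE3 without MITF and TFEB, 4 fell and none rose (median -0.11), where 1.98% of all genes fell. Among the 4 were Irf9, from 213 ± 20.6 to 23.9 ± 0.778 CPM, and Stat2, from 72.6 ± 3.49 to 7.73 ± 0.456 CPM, which encode subunits of the ISRE-binding complex. Some genes, among them Stat2, Irf7, Irf9 and Usp18, stand in this list and in the interferon-stimulated list. After loss of TFEB without MITF and TFE3, 5 fell and 2 rose (median 0.09), where 5.75% of all genes fell and 683 of 12010 rose. After loss of MITF without TFEB and TFE3, 4 fell and 2 rose (median -0.04), where 7.02% of all genes fell and 1068 rose. Nothing is read from the genes that rose. After loss of MITF without TFEB, 7 rose and none fell, where 9.32% of all genes rose. Among the 7 were Stat2 at 2.13 ± 0.10 SE and Stat3, the transducer of interleukin-6 signals, at 1.59 ± 0.11. After loss of MITF without TFE3, 3 rose and 1 fell, where 5.38% of all genes rose and 315 of 12010 fell. The 1 that fell was Socs3, a feedback inhibitor of JAK kinases (-1.33 ± 0.28, adjusted p = 4.5e-04). A single fall among 33 genes is near the share over all genes, and nothing is read from it. None of the 21 interferon genes listed had a row, so their RNA could not be analysed here.

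Of 15 ATG8 conjugation and GABARAP family genes, 14 passed in none of the 8 comparisons. The exception was Map1lc3b, which encodes an ATG8 protein of autophagosomes. It rose after loss of MITF without TFE3 (1.03 ± 0.10 SE, adjusted p = 1.2e-08), where 5.38% of all genes rose. It fell after loss of TFEB without MITF and TFE3 (-1.15 ± 0.10, adjusted p = 1.2e-09), where 5.75% of all genes fell. A single call among 15 genes is near these shares, and nothing is read from it. Of the 8 melanocyte markers, 6 were lower in the TKO against the MITF/TFE3 DKO (median -1.73, 5.75% of all genes). Against the TFEB/TFE3 DKO 6 were lower (median -2.17, 7.02% of all genes). In TFE3-only against TFEB-only cells 6 were lower (median -1.28, 486 of all 12010 genes). After loss of MITF without TFEB 5 were lower (median -1.56, 642 of all 12010 genes). Between the TKO and the MITF/TFEB DKO none passed (median -0.38), where 1.98% of all genes and all 9 genes described here fell. The 5 markers of other cell types summed to 18.8 to 20 CPM in the MITF/TFEB DKO, 22.7 to 25.0 CPM in the TKO, 27.2 to 33.7 CPM in the TFEB/TFE3 DKO and 4.94 to 6.35 CPM in the MITF/TFE3 DKO. Krt14, a keratinocyte marker, was at 17.4 ± 1.63 CPM in the TKO and had 0 reads in the TFEB/TFE3 DKO, and Pecam1, an endothelial marker, was at 0.0717 ± 0.124 and 27.5 ± 3.50 CPM in the same lines. The part of these markers in the results was not tested.

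**Figure D5:**
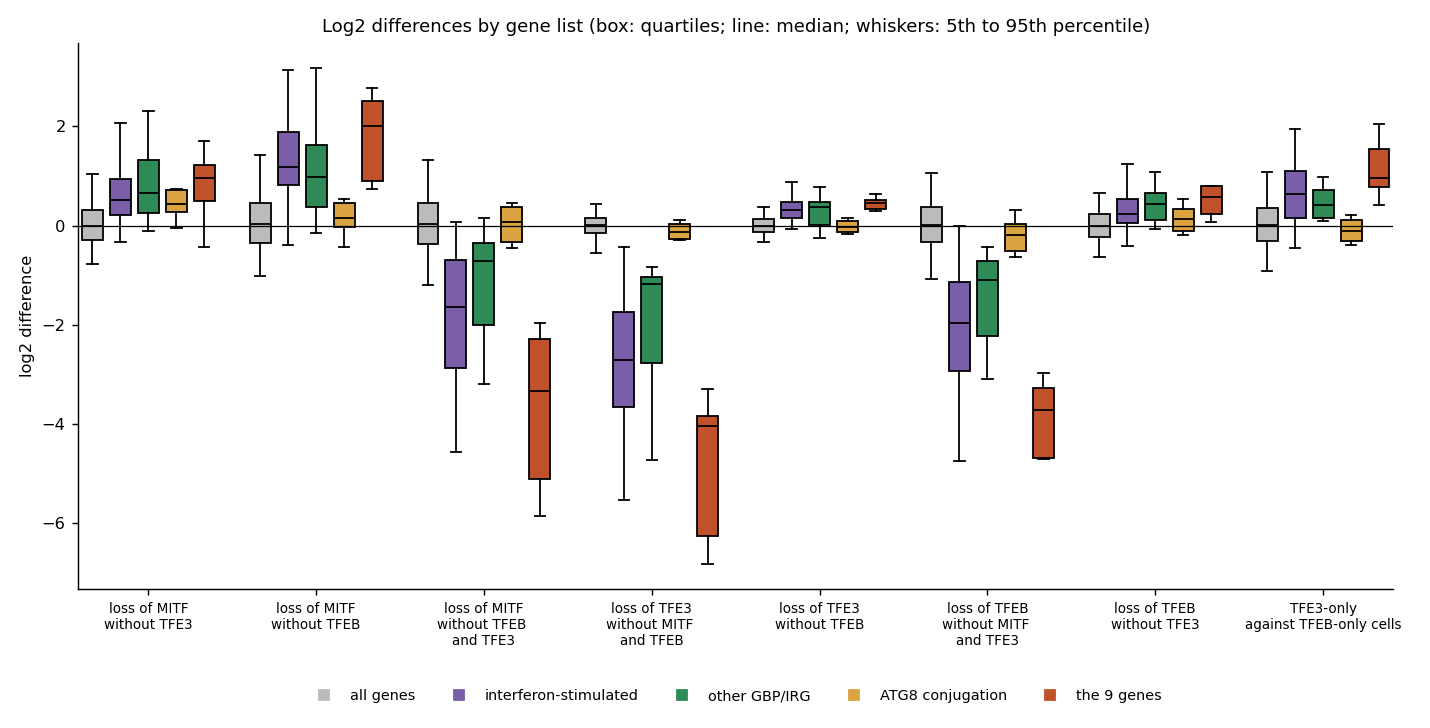
Log2 differences (y axis, limma on log2(CPM + 1)) in the 8 comparisons for all 12010 genes, 96 interferon-stimulated genes, 11 other GBP and IRG genes, 15 ATG8 conjugation genes and the 9 genes described here, with boxes over the quartiles, a line at the median and whiskers from the 5th to the 95th percentile. The boxes of interferon-stimulated genes and of the 9 genes lie below 0 in the 3 comparisons that end in the TKO, and that of the ATG8 genes lies within 1 log2 unit of 0 in each comparison.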

How the data were processed

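RNA of 8 lines was made into 24 QuantSeq 3′ libraries and sequenced by the authors. Per the labels, reads were trimmed with Trim Galore 0.6.5 and cutadapt 2.10, aligned to mm39 with STAR 2.7.8a and normalized with edgeR. The deposited table holds TMM-scaled CPM for 12010 genes (a signal whose column totals run from 933263 to 1081081). Division by the value of 1 read gave whole reads, within 0.1 read, for at least 99.99% of values in every library. No column was left out.

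Values were tested as log2(CPM + 1) with limma 3.58.1 (variance trend, 1 fit of 8 lines and 24 libraries, 16 residual degrees of freedom). The pseudocount of 1 understates changes of low genes. Calls needed a 2-fold difference together with p under 0.05 before adjustment, the threshold of the study. The alternatives were edgeR 4.0.16 on the recovered reads, pseudocounts of 0.25 and 5, a mean of at least 5 CPM, other size factors, no variance trend, the compared libraries alone, adjusted p-values, a replicate block and leaving out each library. The scripts were tested on simulated data. The members, gene lists and comparisons were chosen with earlier results of these data known. Besides the members and the targeted genes, the text names at most 3 called genes per list and comparison with the largest differences and the 5 genes most like each pattern, of which 1 is not reported here.

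Motifs were searched in RefSeq start-site windows, and 3′ ends were compared using GENCODE vM39. No pair of libraries of a line agreed within sampling noise (chi-square per degree of freedom at least 4.63).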

Additional observations from a re-analysis of the deposited data

Results flagged for a closer look

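The effect of losing 1 factor differed between backgrounds by a test of the difference itself (limma contrast, at least 1 log2 unit with an unadjusted p under 0.05, n = 3 libraries per line). For loss of MITF, the effect without TFEB minus that without TFE3 was 2.01 for Gbp2, 1.35 for Gbp3, 1.17 for Apol9a and 1.45 for Apol9b.

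For loss of TFE3 in cells without TFEB, the effect without MITF minus that with MITF was -2.24 for Gbp2, -4.23 for Gbp3, -4.49 for Gbp7, -4.05 for Irgm1, -4.30 for Irgm2, -6.00 for Igtp, -7.90 for Iigp1, -6.60 for Apol9a and -7.30 for Apol9b.

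For loss of TFEB in cells without TFE3, the effect without MITF minus that with MITF was -2.88 for Gbp3, -3.50 for Gbp7, -4.29 for Irgm1, -3.51 for Irgm2, -5.18 for Igtp, -7.40 for Iigp1, -5.43 for Apol9a and -5.85 for Apol9b. The 3 sets share libraries and are not independent, since the first equals the third minus the second.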

How the results depend on the processing

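Of 393 counts of called genes recomputed under an alternative, 392 stayed within 1.5 times the reported count, and 1 did not. Counts with no called gene in either fit are among the 392. The exception was the number of GTPases that differed between the TKO and the MITF KO, which was 5 as reported and 2 with a pseudocount of 5, where a larger pseudocount by construction shrinks differences between low levels. Among single genes in the 8 comparisons without parental or MITF KO libraries, 1071 of the values kept their side of the threshold, 4 lost the call and 5 gained it. No difference called in either fit reversed. Adjusted p-values, no variance trend, the compared libraries alone and the replicate block leave the log2 difference itself unchanged. The count of genes raised by loss of MITF without TFE3 was 3 to 4 over the fits that left out a library and 3 with a pseudocount of 5, and that of TFE3-only against TFEB-only cells was 3 to 4. The count of genes lowered by loss of TFE3 without MITF and TFEB was 9 in each alternative. The replicate block gave the same counts as the fit without it for every comparison, for example 9 lowered by loss of TFE3 and 8 by loss of TFEB in cells without MITF. The replicate numbers did not pair the libraries, since deviations of same-numbered libraries had a mean correlation of 0.022 (-0.66 to 0.77). With edgeR on recovered reads more of all genes passed, and the cause was not tested. After loss of TFE3 without MITF and TFEB 416 instead of 238 were lower, after loss of MITF without TFE3 1062 instead of 646 were higher and after loss of TFEB without TFE3 509 instead of 204 were higher. Against parental cells the lower genes were 381 instead of 161 (TFE3 KO), 192 instead of 71 (TFEB KO), 160 instead of 46 (TFEB/TFE3 DKO) and 551 instead of 359 (MITF KO). In the MITF/TFE3 DKO against the MITF KO 688 instead of 407 were higher, and for the difference in the effect of TFE3 loss 515 instead of 333 were lower.

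Depth limits the lowest levels. Iigp1 in the MITF KO and the TKO, and Apol9a and Apol9b in the MITF KO, rest on a few reads per library. Each knockout line is a clone in 3 libraries, which limits what a difference between lines can be assigned to.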
